A study of Homo sapiens with 6 samples.

Results

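The iron handling genes described here are 10 rows of the deposited polysome table, chosen by gene symbol for known roles. These roles are iron uptake (TFRC, STEAP3, SLC11A2, CYBRD1), storage (FTH1, FTL) and its breakdown (NCOA4), export (SLC40A1) and sensing (ACO1, IREB2). The table has 30345 rows, of which 15634 carried an adjusted p and are called tested genes below. Of the 10 members, 9 were tested and 1, CYBRD1, was not. All libraries came from OS-RC-2, an established clear cell renal cell carcinoma line that lacks functional VHL, the protein that marks hypoxia-inducible factors such as HIF2 for degradation. HIF2 protein was not measured in the table used here. Cells received 2 µM PT2399, an inhibitor of HIF2, or vehicle for 72 h, with 3 biological replicates in each group, and RNA was taken from the gradient fractions heavier than the monosome peak. The comparison asks which of these mRNAs differed in polysomes when HIF2 was inhibited. A single cell line was used, and no matched total RNA is used here, so the amount of an mRNA and its loading on ribosomes cannot be told apart. Nor can fewer cells with an mRNA and less of it per cell.

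Cells take up iron mainly as transferrin bound to the transferrin receptor (TFRC). In endosomes the iron is reduced by STEAP3 and carried into the cytosol by the transporter DMT1, the product of SLC11A2. Ferritin, a shell of heavy (FTH1) and light (FTL) chains, stores what is not used, NCOA4 delivers ferritin to lysosomes for breakdown, and ferroportin (SLC40A1) is the known iron exporter. When iron is scarce, the iron regulatory proteins IRP1 (ACO1) and IRP2 (IREB2) bind short hairpins in mRNAs called iron responsive elements (IREs). Bound before the coding sequence they block translation, as in ferritin mRNA, and bound after it they stabilize the message, as in TFRC mRNA. HIF2 is known to induce SLC11A2, CYBRD1 and SLC40A1 in the intestine, its own mRNA (EPAS1) carries an IRE, and TFRC has been described as a HIF target.

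The IREs of the members are shown because they are the sequences through which IRPs act on these mRNAs. Annotated transcripts (GENCODE release 44) were searched for the hexaloop CAGTGN closed by 5 paired bases with an unpaired C before them. Among members 4 had a match, FTH1, FTL and SLC40A1 before the coding sequence and TFRC after it. Each line gives DNA letters 5′ to 3′ with the hexaloop in capitals.

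FTH1, chromosome 11, loop at bases 45 to 50 of the canonical transcript: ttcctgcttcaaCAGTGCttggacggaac
FTL, chromosome 19, loop at bases 39 to 44: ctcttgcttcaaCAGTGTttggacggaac
SLC40A1, chromosome 2, loop at bases 110 to 115: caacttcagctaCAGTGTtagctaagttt
TFRC, chromosome 3, loop at bases 3301 to 3306: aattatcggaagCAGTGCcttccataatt
TFRC, loop at bases 3705 to 3710: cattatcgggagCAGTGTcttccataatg
TFRC, loop at bases 3770 to 3775: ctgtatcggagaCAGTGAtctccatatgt
TFRC, loop at bases 3817 to 3822: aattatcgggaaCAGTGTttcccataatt

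The windows of FTH1 and FTL were identical at 26 of 29 bases, and TFRC held 4 matches in its 3′ UTR. Over 19833 protein-coding genes, 0.192% had a match in a 5′ UTR and 0.716% in a 3′ UTR. The other 6 members had none, which says only that these letters, with full pairing, are not in the annotated transcripts. SLC11A2 is known to carry an IRE in some of its isoforms, and the table gives 1 value per gene and does not separate them. Of 10 genes known to carry an IRE (described below), the search matched 7 and missed SLC11A2, EPAS1 and CDC42BPA.

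In PT2399-treated cells both ferritin genes and NCOA4, which delivers ferritin for breakdown, rose, while 2 uptake genes fell. The uptake gene SLC11A2, the exporter and both IRP genes did not pass the test. NCOA4 rose most, to 167% of its vehicle level, followed by FTL (141%) and FTH1 (122%). STEAP3 fell to 79.5% and TFRC to 92.3%. The authors tested each gene with DESeq2's Wald test (two-sided), and a gene counts as called here when its Benjamini-Hochberg p, taken over all tested genes, is 0.05 or less. By that rule 5 of 9 tested members were called, 3 higher and 2 lower, against 23.0% of all tested genes (11.3% higher and 11.7% lower). Calls are more frequent among abundant genes, and 34.4% of the 7218 tested genes whose mean reached 1000 normalized counts were called. Of the 9 tested members all but SLC40A1 exceeded that mean. The median log2 fold change of the 9 was 0.11, beside 0.00 over all tested genes.

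**Figure D1:**
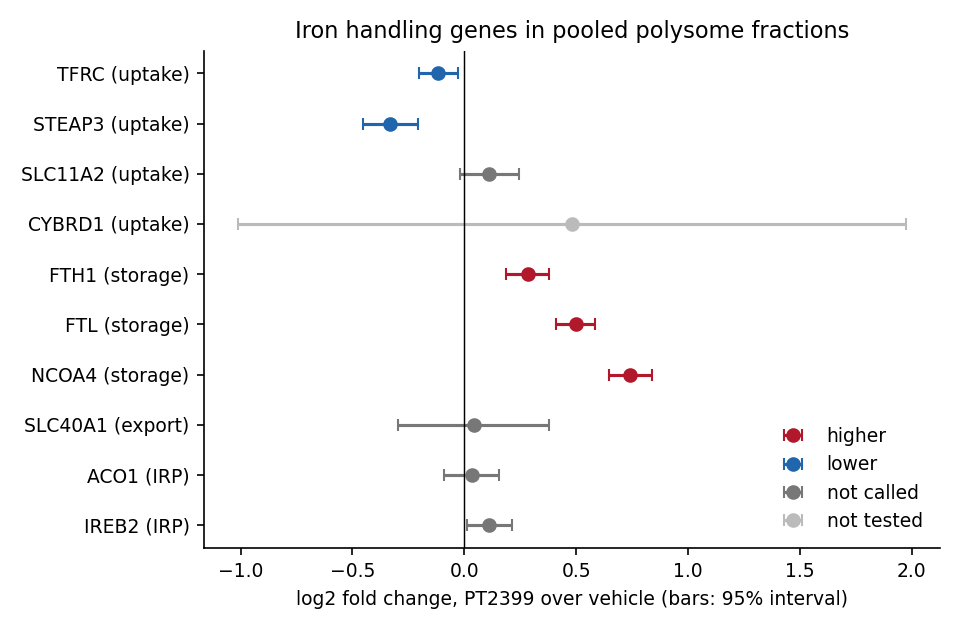
Log2 fold change of each member, PT2399 over vehicle, on the horizontal axis, with bars for the 95% interval and colour for the call. The 3 genes labelled storage, FTH1, FTL and the ferritin breakdown receptor NCOA4, lie to the right of 0 with intervals that do not reach it. STEAP3 and TFRC lie to the left, and the interval of CYBRD1 runs from -1.01 to 1.98.

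Values of single libraries were not used here, so the spread between replicates enters only through the deposited standard error (SE) of each log2 fold change. The size factors that the authors' normalization gave the 6 libraries, read back from genes with a lone read, ranged from 0.782 to 1.19, and total counts are not known here. Precision followed abundance: the median SE of tested genes was 0.46 where the mean was under 100, 0.14 between 100 and 1000, 0.07 between 1000 and 10000, and 0.05 beyond. All 9 fixed renal markers had means of at least 100, from 101 for NDUFA4L2 to 170524 for VIM, with PAX8 at 17472. The defining leukocyte gene PTPRC had a mean of 1.85, the 3 endothelial markers had at most 13.2, and of 4 erythroid markers 2 had no row and the others had at most 5.73. CD68 (3555) and COL1A1 (209) were the only markers of other cell types above 100. Group levels given below are those implied by the deposited mean and fold change together, in normalized counts per library.

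Of the uptake genes, TFRC was the most abundant per kb of transcript (below). TFRC (ENSG00000072274; chromosome 3, 196049284 to 196082090, GRCh38.p14) had an implied level of 30206 in vehicle and 27878 in PT2399. This is a log2 fold change of -0.12 (SE 0.04, with a 95% interval of -0.20 to -0.03; Wald adjusted p = 0.0427). The fall was small, and the call was lost when the p-values of all rows were adjusted together (adjusted p = 0.0819). STEAP3, the endosomal ferric reductase (ENSG00000115107; chromosome 2, 119223834 to 119265652), went from 3213 to 2555. It fell by 0.33 on the log2 scale (SE 0.06, interval -0.45 to -0.21; Wald adjusted p = 1.8e-06), and the intervals of STEAP3 and TFRC did not overlap. STEAP3-AS1, an antisense RNA at the same locus, had a mean of 8.68 and was not tested.

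SLC11A2, which encodes DMT1 (ENSG00000110911; chromosome 12, 50952263 to 51028886), had implied levels of 2233 in vehicle and 2413 in PT2399. At a log2 fold change of 0.11 (SE 0.07, interval -0.02 to 0.24; Wald adjusted p = 0.245) it was not called, and the interval runs from 98.7% to 118% of vehicle. CYBRD1, a ferric reductase of the plasma membrane (ENSG00000071967; chromosome 2, 171522233 to 171558129), had a mean of 10.9 normalized counts, below the lowest tested mean of 14.5. Its fold change of 0.48 (SE 0.76) has an interval from 49.5% to 393% of vehicle, which holds both a fall and a rise. At this depth the direction of any change was not determined.

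Both ferritin genes were among the most abundant mRNAs in the polysome fractions. Per kb of the longest coding transcript, FTL had a mean of 129013 normalized counts and FTH1 92592, the ranks 4 and 6 of 11899 tested genes with such a length. NCOA4 (5942) and TFRC (5378) ranked 287 and 323, followed by IREB2 (1546), STEAP3 (677), ACO1 (573), SLC11A2 (562) and SLC40A1 (71.5), with CYBRD1 (2.58) last. No error goes with these means over both groups, so neighbours as close as NCOA4 and TFRC, or STEAP3, ACO1 and SLC11A2, have no settled order.

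**Figure D2:**
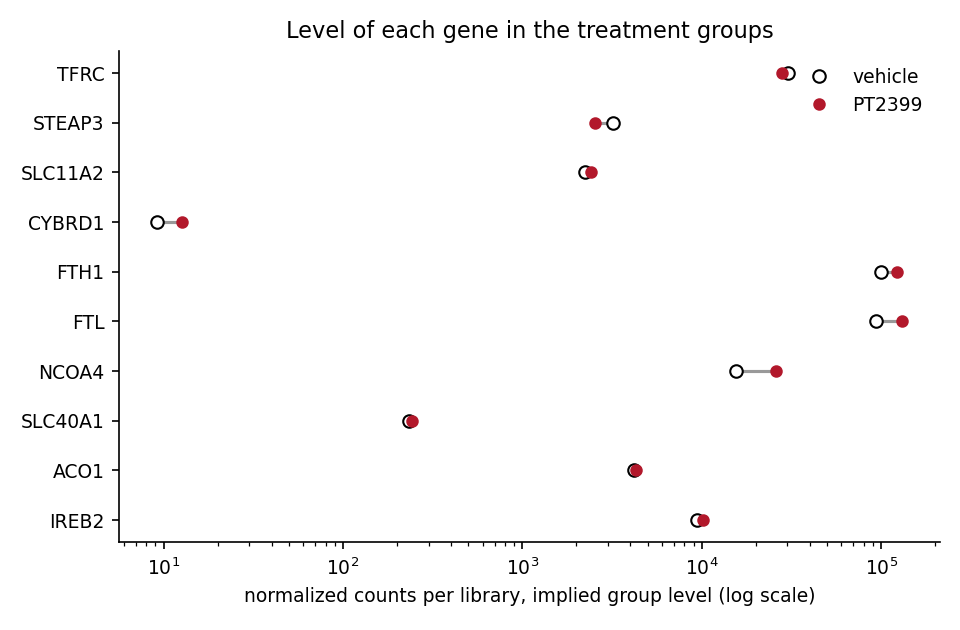
Implied level of each member in vehicle (open circles) and PT2399 (filled circles), in normalized counts per library on a log axis, not divided by length. Levels run from 9.13 (CYBRD1, vehicle) to 131541 (FTL, PT2399), and the widest gap among tested members is that of NCOA4.

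FTL, the ferritin light chain (ENSG00000087086; chromosome 19, 48965309 to 48966879), rose from an implied 93199 to 131541. The log2 fold change of FTL was 0.50 (SE 0.04) and its interval 0.41 to 0.59 (Wald adjusted p = 1.5e-26). FTH1, the heavy chain, which carries the ferroxidase activity (ENSG00000167996; chromosome 11, 61964285 to 61967634), rose from 100465 to 122311. For FTH1 the log2 fold change was 0.28 (SE 0.05) with an interval of 0.19 to 0.38 (Wald adjusted p = 1.4e-07). Both chains rose, and their intervals did not overlap, the light chain having the larger change.

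Reads of ferritin mRNA can also fall on processed pseudogenes, so those rows were read too. The table held 16 FTH1 pseudogenes with a summed mean of 89.0 normalized counts, which is 0.0799% of that of FTH1, and the highest, FTH1P7, had 21.6. The 4 FTL pseudogenes summed to 2.82, or 0.00251% of FTL. Only FTH1P7 was tested, and it was not called. BEST1, which overlaps FTH1 in the annotation, had a mean of 80.3 and a log2 fold change of -0.58 (SE 0.29; Wald adjusted p = 0.136).

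NCOA4, the receptor for ferritin breakdown in lysosomes (ENSG00000266412; chromosome 10, 46005088 to 46030623), rose from an implied 15509 to 25951. Its log2 fold change of 0.74 (SE 0.05, interval 0.65 to 0.84; Wald adjusted p = 2.0e-50) was the largest among members, above that of FTL with no overlap of intervals. By rise, NCOA4 stood at rank 443 of 15634 tested genes, FTL at 910 and FTH1 at 2007. NCOA4 has no IRE match in the search above.

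SLC40A1, which encodes ferroportin (ENSG00000138449; chromosome 2, 189560590 to 189580786), was expressed at an implied 235 in vehicle and 242 in PT2399. With a log2 fold change of 0.04 (SE 0.17, interval -0.29 to 0.38; Wald adjusted p = 0.909) it was not called. The interval spans 81.5% to 130.2% of vehicle, wide enough to hold a rise as large as that of FTH1. Of the 3 members that HIF2 is known to induce in the intestine, SLC11A2 and SLC40A1 were thus not called and CYBRD1 was not tested. SLC40A1, like the ferritin genes, has an IRE match before the coding sequence.

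Neither IRP gene was called. ACO1, cytosolic aconitase and IRP1 (ENSG00000122729; chromosome 9, 32384643 to 32454769), had implied levels of 4219 and 4318, a log2 fold change of 0.03 (SE 0.06, interval -0.09 to 0.16; Wald adjusted p = 0.777). IREB2, which encodes IRP2 (ENSG00000136381; chromosome 15, 78437431 to 78501453), had 9395 and 10156, a log2 fold change of 0.11 (SE 0.05, interval 0.01 to 0.21). Its p of 0.0300 did not pass after adjustment (Wald adjusted p = 0.106). Ordered by fold change, the intervals of IREB2 and of FTH1, its neighbour above, overlapped, as did those of all neighbours from IREB2 through SLC11A2, SLC40A1 and ACO1 to TFRC.

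For scale, 3 HIF2 targets and EPAS1 were called lower in the same test, with log2 fold changes of -1.47 for VEGFA, -2.02 for EGLN3, -2.19 for EPAS1 and -2.36 for NDRG1. No member changed by as much as 1 in either direction, and the largest, NCOA4, was a rise.

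**Figure D3:**
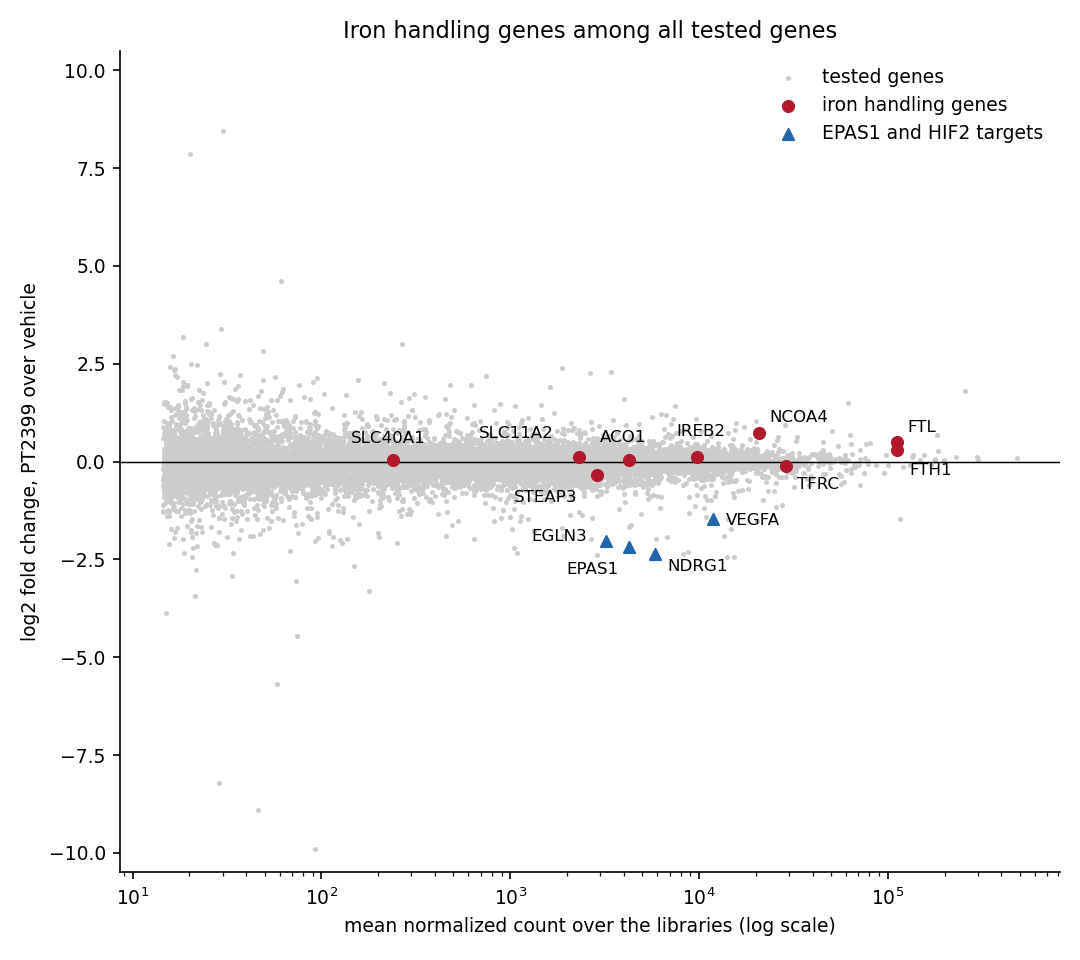
Mean normalized count over the 6 libraries (log axis) against log2 fold change for the 15634 tested genes (grey), with the 9 tested members (circles) and EPAS1, EGLN3, VEGFA and NDRG1 (triangles). FTL and FTH1 lie toward the right, above 0, and all members lie closer to 0 than the triangles.

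The core of the HIF binding site, ACGTG or GCGTG, was counted on both strands of RefSeq promoter windows from 250 bases before to 50 after each start site (GRCh38.p14). Of 9 members with a window (FTH1 had none in the tables used), 6 held either motif in at least 1 of their windows, beside 48.4% of all 35116 windows. Members with several start sites had several windows, and 8 of all 15 windows held a motif. ACGTG was found in TFRC and FTL only, and in 21.4% of all windows. GCGTG was in at least 1 window of 5 members and in 36.5% of all windows. A member with several windows has more room for a match, so counts of members are not on the same footing as these shares of single windows. NCOA4, SLC40A1 and STEAP3 had neither. All stretches of members with ACGTG are shown, with the motif in capitals and both read along the gene's strand.

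TFRC, chr3:196082163-196082189, minus strand, motif 88 bases before the start site: ctcgcgagcgtACGTGcctcaggaagt
FTL, chr19:48965287-48965313, plus strand, motif on the opposite strand (reading CACGT here) 11 bases before the start site: gccgccctagcCACGTcccctcgcagt

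A motif match is not a binding site, and binding was not examined here. Any link between these matches and the fold changes was not tested.

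The wider iron pathway was described with 8 lists of known genes, 100 genes in all, of which 85 were tested. Of these, 21 were higher, 8 lower and 56 not called, and the median log2 fold change was 0.06. With a trend over GC content and transcript length removed, 18 were higher and 11 lower. After that removal 3448 of the 13471 tested genes with known GC content and length were called in either direction. Beside the members, 76 tested genes gave 18 higher, 6 lower and 52 not called. Of all tested genes 11.3% were higher and 11.7% lower, and 34.4% were called among those with a mean of at least 1000.

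For comparison, 11.3% of all tested genes were higher and 11.7% lower. Of 12 tested genes of the transferrin cycle and other import, 2 were higher, 3 lower and 7 not called (median -0.08). The lower genes were the members TFRC and STEAP3, and HFE. HFE, which binds the transferrin receptor, fell by 0.33 (SE 0.12). CD44, a hyaluronan receptor, rose by 0.31 (SE 0.07) and LRP1, a receptor for heme bound to hemopexin, rose by 0.25 (SE 0.06). The divalent metal importers SLC39A14, at -0.05 (SE 0.06), and SLC39A8, at -0.02 (SE 0.07), were not called.

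In the list of export and its hormonal control, CP fell to 44.2% of vehicle. CP encodes ceruloplasmin, a ferroxidase that works with ferroportin, and its log2 fold change of -1.18 (SE 0.07, interval -1.32 to -1.03; Wald adjusted p = 8.3e-55) was larger than that of any member. Of 7 tested genes 2 were higher, 1 lower and 4 not called (median 0.13), beside 11.3% higher and 11.7% lower among all tested genes. SMAD6, an inhibitory SMAD, rose by 0.61 (SE 0.08) and ID1, a transcriptional regulator induced by BMP signalling, by 0.13 (SE 0.05; Wald adjusted p = 0.0462). NEO1 at -0.02 (SE 0.06) and SMAD7 at 0.17 (SE 0.09) were not called. HAMP, the gene of hepcidin, was not tested, at a mean of 4.12; it is named outside the rule for named genes.

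Beside FTH1, FTL and NCOA4, no gene of the storage list was called by the DESeq2 Wald test, against 23.0% of all tested genes. Of the list's 6 tested genes only those 3 had an unadjusted p under 0.05, as had 5022 of all 15634 tested genes. The iron chaperones PCBP2 at 0.02 (SE 0.04) and PCBP1 at -0.08 (SE 0.04) were not called. Of 7 genes of the IRPs and their control 1 was lower, beside 11.7% of all tested genes. The other 6 were not called (list median 0.03). The lower gene was RBX1, a subunit of cullin ubiquitin ligases, at -0.33 (SE 0.08), while SKP1, an adaptor of the ligase that degrades IRP2, had 0.08 (SE 0.06).

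Heme breakdown held the largest rise among called genes of the lists. HMOX1, heme oxygenase, which frees iron from heme, rose to 196% of vehicle (log2 fold change 0.97, SE 0.06, interval 0.86 to 1.08; Wald adjusted p = 1.9e-65). SLC48A1, a heme transporter of endosomes and lysosomes, rose by 0.59 (SE 0.06) and UROS, an enzyme of heme synthesis, by 0.54 (SE 0.08). Among all tested genes 11.3% were higher and 11.7% lower, and 34.4% were called where the mean reached 1000. Of 20 tested genes of heme synthesis, transport and breakdown, 7 were higher, 1 lower and 12 not called (median 0.06). The lower gene, FLVCR1, named after its value was seen, had -0.20 (SE 0.07). PGRMC1 at 0.07 (SE 0.05) and ABCB10 at -0.14 (SE 0.07) were not called.

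Of 22 genes of mitochondrial iron and iron-sulfur clusters, 6 were higher, 1 lower and 15 not called (median 0.10). The shares over all tested genes were 11.3% higher and 11.7% lower. CISD1, an iron-sulfur protein of the outer membrane, rose by 0.50 (SE 0.08), ISCU, the scaffold on which clusters are built, by 0.41 (SE 0.07) and ISCA1 by 0.33 (SE 0.08). NFU1, named after its value was seen, was the lower gene at -0.24 (SE 0.09), and HSPA9 at 0.05 (SE 0.05) and the mitochondrial iron importer SLC25A37 at 0.11 (SE 0.08) were not called. None of the 9 genes of cytosolic iron-sulfur assembly was called by the DESeq2 Wald test (median 0.14), beside 23.0% of all tested genes. An unadjusted p under 0.05 was found for 2 of the 9 and for 5022 of all 15634 tested genes. CIAO1, a component of this machinery, had 0.14 (SE 0.06).

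**Figure D4:**
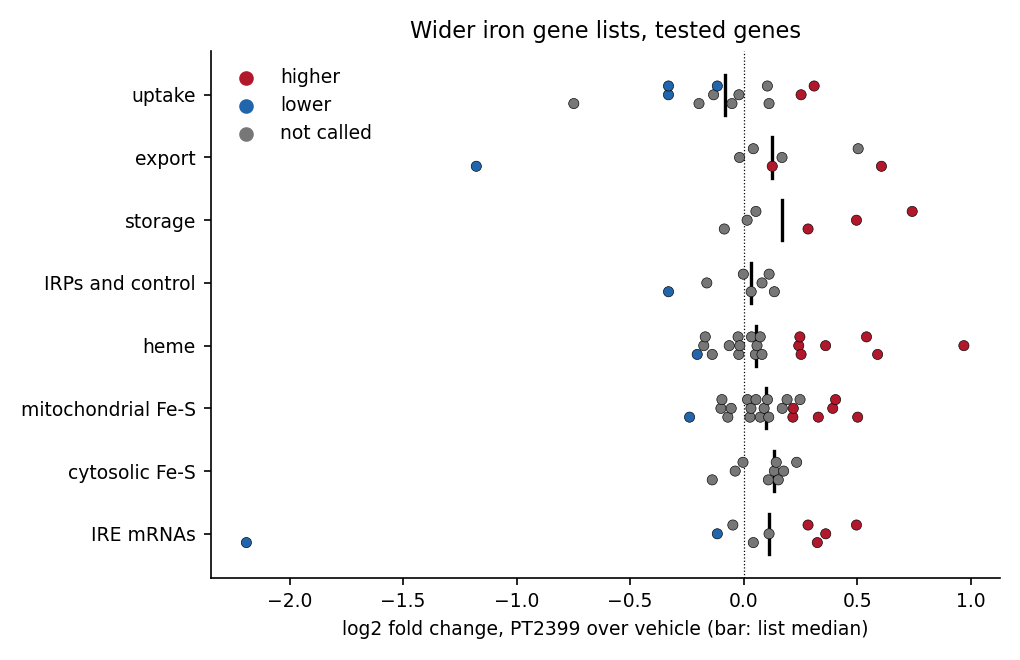
Log2 fold change, PT2399 over vehicle, of each tested gene in 8 iron gene lists, coloured by call, with a bar at each list's median. The storage list has 3 higher and 0 lower genes, beside 11.3% higher and 11.7% lower among all tested genes. CP (-1.18) and EPAS1 (-2.19) lie far to the left, and HMOX1 (0.97) farthest to the right.

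Genes known to carry an IRE went both ways on either side of the coding sequence. Of 9 tested, 4 were higher, 2 lower and 3 not called (median 0.11), beside 11.3% higher and 11.7% lower among all tested genes. Among those with the IRE before the coding sequence, FTL and FTH1 rose, SLC40A1 was not called and EPAS1 fell by 2.19 (SE 0.07), while ALAS2 was not tested. Among those with it after the coding sequence, TFRC fell and CDC14A, named after its value was seen, rose by 0.36 (SE 0.14). Both calls were near the threshold (Wald adjusted p = 0.0427 for TFRC and 0.0384 for CDC14A). SLC11A2 and CDC42BPA, the latter at -0.05 (SE 0.05), were not called.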

How the data were processed

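Polysome-seq libraries of OS-RC-2 cells (3 PT2399, 3 vehicle) were grouped by their labels. The dose follows the treatment protocol (2 µM), since a label of the treated samples reads 2 mM. Per the labels and the methods, the authors used Salmon, DESeq2 1.22.1 and STAR 2.7.3a with hg38. The deposited table holds the authors' mean normalized count, a signal averaged over all libraries, their unshrunken log2 fold change with its SE on the log2 scale, a Wald score, and p-values with Benjamini-Hochberg adjusted p-values. These comparison columns are the authors' own estimates and were used because the table holds no values of single libraries; total counts, replicate agreement and batches could not be examined, and the libraries' relative depth was read from genes with a lone read. As deposited, 14711 rows have no adjusted p, nearly all of them rows with a p whose mean lies below that of every tested gene. The sources used here do not state whether counting used strand.

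The members and lists were chosen with earlier results of these data known. Intervals are the log2 fold change ± 1.96 SE. Implied group levels take the fold change as the ratio of the 2 group means. The genes named are all members, at most 4 called genes of each list, by adjusted p, and its 2 most abundant uncalled genes, and 4 genes for scale; exceptions are marked, and some genes the rule names are not reported here. Gene positions and promoters are from RefSeq (GRCh38.p14), and transcripts from GENCODE release 44 lifted to GRCh37, used by sequence and not by coordinate. Alternatives were other thresholds, other sets of genes for the adjustment, centring, and removal of a trend over GC content and transcript length in 10 by 5 classes. The adjustment and the IRE search were tested on simulated data. Scripts ran in Python 3.11.15 with numpy 2.4.6, pandas 2.3.3 and scipy 1.17.1; figures were drawn in matplotlib 3.10.9.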

Additional observations from a re-analysis of the deposited data

How the results depend on the processing

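At an adjusted p of 0.01 and when all 30341 p-values were adjusted together, 1 member (STEAP3) stayed lower and TFRC lost its call (adjusted p = 0.0819 in the latter, with a range of 0.00622 to 0.0819 over all alternatives). The other called members passed in all alternatives except a minimum absolute log2 fold change of 1, at which 0 members were called higher or lower, 0 genes of the wider lists were higher, 2 were lower, and 320 of all tested genes were called. At an adjusted p of 0.01, 14 genes of the wider lists were higher and 4 lower, against 21 and 8. Of 72 alternative values of single members, 65 kept their side of the threshold and 7 lost a call. Direction could change only under centring or trend removal, since the other alternatives reuse the deposited fold change, and 0 changed. With the GC and length trend removed (known for 86.2% of tested genes), the log2 fold change of TFRC was -0.15, and 18 genes of the wider lists were higher and 11 lower. In that setting 3448 of the 13471 tested genes with known GC content and length were called. No paired analysis was possible because the columns carry no single libraries, and for the same reason leaving out a replicate was not run. CYBRD1 and, less so, SLC40A1 were limited by low counts.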

Other observations

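Iron genes were also counted through the Gene Ontology identifiers in the deposited table, terms chosen after the data were seen. Of 46 tested genes annotated to cellular iron ion homeostasis, 14 were higher, 5 lower and 27 not called in the DESeq2 Wald test, with a median log2 fold change of 0.11, beside 11.3% higher and 11.7% lower among all tested genes and 34.4% called among those with a mean of at least 1000. The term holds 8 tested members, and without them 38 genes gave 11 higher, 4 lower and 23 not called. HIF1A, the alpha subunit of the other main hypoxia-inducible factor, was among the higher genes at 0.63 (SE 0.05), and CAND1, a regulator of cullin ligases, at -0.09 (SE 0.05), was not called.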
